A study of Mus musculus with 2 samples.

Results

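The miR-23/27/24 clusters are a pair of duplicated microRNA loci of the mouse genome, and their 6 rows were taken from the 1973 miRNA gene rows of each count table. The rows were matched by Ensembl gene identifier to Mir23a, Mir27a and Mir24-2 on chromosome 8 and to Mir23b, Mir27b and Mir3074-1 on chromosome 13. All 6 were found, and all had a mean of at least 10 counts per 1000000 sense counts (CPM). MicroRNA-seq had been made from total RNA of hearts of healthy B6NCrl mouse embryos at 13.5 days, with males and females pooled and RNA below 30 nucleotides selected. The study held 1 group with 2 libraries, named as biological replicates from separate biosamples under 1 donor record, and no second condition. Sense counts, on the strand of the gene, totalled 5569959 in replicate 1 and 6039005 in replicate 2.

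Each cluster is known to be transcribed as 1 primary RNA that is cut into 3 hairpins, each of which gives a 5p and a 3p arm. A mature miRNA is loaded into Argonaute and pairs with target messengers mainly through its seed, bases 2 to 8, so that paralogs with 1 seed share most predicted targets. In mice, miR-23 and miR-27 are known for promoting the sprouting of endothelial cells, miR-23a and miR-27b have been tied to growth of heart muscle cells, and miR-24 to their survival and to angiogenesis after infarction. In whole hearts, fewer cells of a type and less miRNA per cell cannot be told apart.

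The mature arms are shown first because the counts turn on how far the paralogs differ in sequence. They come from RefSeq (GRCm38.p6) and run 5′ to 3′, with the seed in capitals. RefSeq's table held at least 1 arm for each of the 6 loci; miR-23b-3p was not printed.
mmu-miR-23a-3p: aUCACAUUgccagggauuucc
mmu-miR-27a-3p: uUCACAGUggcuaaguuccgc
mmu-miR-27b-3p: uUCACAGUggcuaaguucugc
mmu-miR-24-3p: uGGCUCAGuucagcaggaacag
mmu-miR-24-2-5p: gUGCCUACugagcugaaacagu
mmu-miR-24-1-5p: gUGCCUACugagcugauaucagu
mmu-miR-3074-5p: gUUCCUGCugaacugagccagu
The 3p arms of Mir27a and Mir27b share the seed UCACAGU. They are identical at 20 of 21 bases, the difference being C19U, with the miR-27a base first and positions counted from the 5′ end. The longest run of either at the other locus was 18 bases. The 3p arm of Mir23a shared a run of 18 of its 21 bases with the Mir23b hairpin. The 5p arms of Mir24-2 and Mir24-1 share the seed UGCCUAC and their first 16 bases. The 3p arm miR-24-3p is the same 22 bases at both loci. The arm miR-3074-5p comes from the other strand, is complementary to miR-24-3p over 20 bases, and is also found at both loci.

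The hairpins of the miR-24 loci show which bases can tell them apart, with the mature arms in capitals.
Mir24-2: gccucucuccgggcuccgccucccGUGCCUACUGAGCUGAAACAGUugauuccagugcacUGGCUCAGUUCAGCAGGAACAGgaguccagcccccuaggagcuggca
Mir24-1: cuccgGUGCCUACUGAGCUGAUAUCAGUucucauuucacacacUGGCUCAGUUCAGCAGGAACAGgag
A read of miR-24-3p alone matches both hairpins at all its bases, while the 5p arms and the loops differ. Reads mapping to several places were held in a class of their own, 3263825 reads in replicate 1 and 3436774 in replicate 2, and the gene rows are assumed here to leave them out, although the notes do not say so. If so, the rows of Mir24-2 and Mir3074-1 leave out the reads that fit both loci, and they are no measure of mature miR-24.

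On mm10, with coordinates from GENCODE M21, Mir23a (ENSMUSG00000065611.1) lies on the plus strand of chromosome 8 from 84208518 to 84208592. Mir27a (ENSMUSG00000065444.1) follows from 84208672 to 84208758 and Mir24-2 (ENSMUSG00000065541.1) from 84208815 to 84208921. No annotated transcript on that strand spans them, and the long non-coding RNA Gm26532 begins within the last 2 bases of Mir24-2. On chromosome 13, Mir23b (63300484 to 63300557) and Mir27b (63300712 to 63300784) lie on the plus strand within 2010111I01Rik, the aminopeptidase O gene, named Aopep by RefSeq. Mir23b is intronic in all 9 transcripts of that gene that span it. Mir27b is intronic in 8 of 9 and inside an exon in the other. Mir3074-1 (63301199 to 63301283) lies on the minus strand, in an intron of Fancc, a DNA repair gene. It overlaps Mir24-1 (63301208 to 63301275, plus strand), which had no row of its own. The chromosome 8 cluster spans 404 nucleotides and the chromosome 13 cluster 800. The gap between the miR-27 and miR-24 hairpins is 56 nucleotides on chromosome 8 and 423 on chromosome 13.

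**Figure D1:**
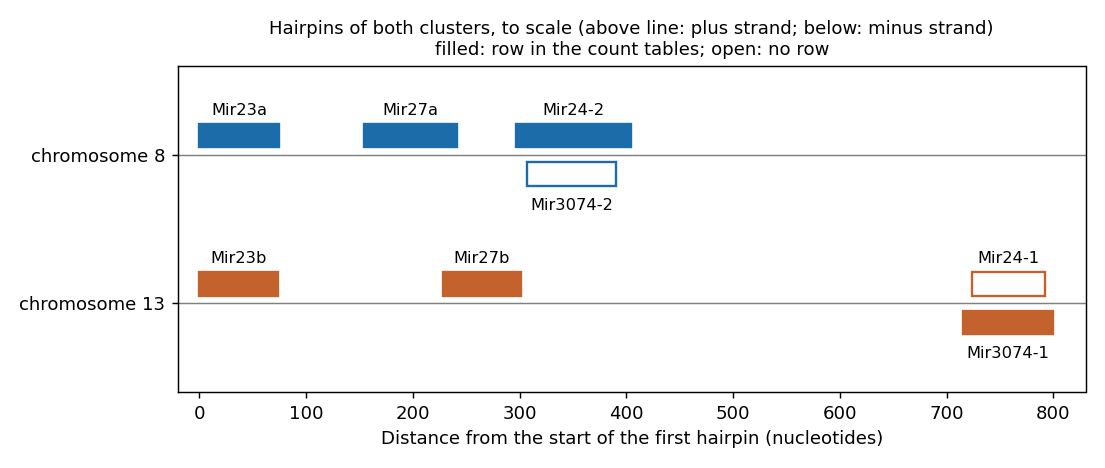
Hairpins of both clusters to scale, by distance in nucleotides from the start of the first hairpin; boxes above a line are on the plus strand, boxes below on the minus strand, filled boxes have a row in the count tables and open boxes have none. The order of miR-23, miR-27 and miR-24 is the same in both, over 404 nucleotides on chromosome 8 and 800 on chromosome 13.

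The miR-23 rows stood far above the others in both clusters. Mir23a held 114387 counts in replicate 1 and 120117 in replicate 2, or 20536 and 19890 CPM. Its mean was 20213 ± 457 CPM (SD, n = 2), rank 12 of 1973 rows, of which 692 held any sense count. Mir23b held 91084 and 86817 counts, or 16353 and 14376 CPM, with a mean of 15364 ± 1398 CPM and rank 17. Mir23a lay above Mir23b in both libraries, and their ranges did not overlap. Together they took 95.3% ± 0.186 of the counts at the 6 rows.

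The miR-27 rows were lower. Mir27b held 6420 and 6782 counts in replicates 1 and 2, or 1153 and 1123 CPM, a mean of 1138 ± 20.9 CPM at rank 72. Mir27a held 1254 and 1533 counts, or 225 and 254 CPM, a mean of 239 ± 20.3 CPM at rank 138. Here the chromosome 13 member was the higher one in both libraries, the opposite of the miR-23 pair.

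Of the rows at the miR-24 loci, Mir24-2 held 1693 and 1751 counts, or 304 and 290 CPM in replicates 1 and 2 (297 ± 9.90 CPM, rank 126). Mir3074-1 held 430 and 401 counts, or 77.2 and 66.4 CPM (71.8 ± 7.64 CPM, rank 202). From the highest mean to the lowest the order was Mir23a, Mir23b, Mir27b, Mir24-2, Mir27a and Mir3074-1. No neighbours in this order had overlapping ranges. A small RNA read covers a mature miRNA, so counts were not divided by hairpin length, and a row sums the counted reads of both arms. If multi-mapping reads are left out, the rows of Mir24-2 and Mir3074-1 each lack the arm that is the same at both miR-24 loci. Their places in the order then do not compare whole hairpins with whole hairpins.

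**Figure D2:**
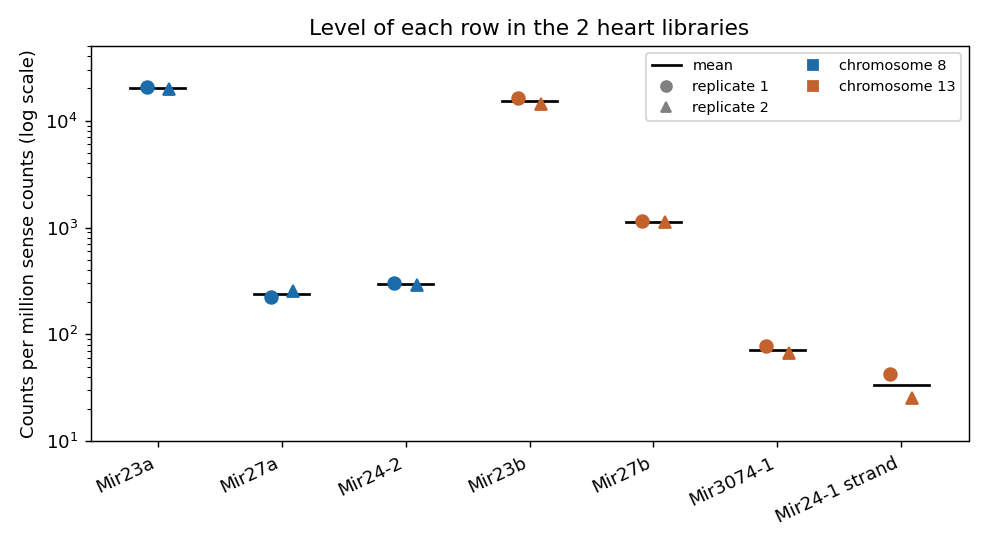
Counts per 1000000 sense counts, on a log axis, of the 6 rows and of the counts opposite to Mir3074-1 (Mir24-1 strand); circles are replicate 1, triangles replicate 2, lines the mean. Mir23a at 20213 CPM and Mir23b at 15364 CPM stand above Mir27b at 1138 CPM and all other rows.

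The paralogs therefore differed in opposite directions. Mir23a had 1.32 times the counts of Mir23b, or 0.40 ± 0.0988 on the log2 scale (SD, n = 2). It was 1.26 in replicate 1 (exact Clopper-Pearson 95% interval 1.24 to 1.27) and 1.38 in replicate 2 (1.37 to 1.40), so the libraries differed by more than counting error. Mir27a over Mir27b was 0.195 in replicate 1 (0.184 to 0.208) and 0.226 in replicate 2 (0.214 to 0.239). The log2 ratio was -2.25 ± 0.149, which makes Mir27a 4.76-fold lower than Mir27b. Both mean log2 ratios exceeded their SD. The smallest p that an exact sign-flip permutation can reach with 2 libraries is 0.5, so no p-value is given for ratios. PCR copies are counted as separate reads, and all intervals and limits cover counting error alone.

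The ratio between the miR-24 loci was set up after the counts were seen. Counts opposite to the row of Mir3074-1 lie on the strand of Mir24-1. There were 235 in replicate 1 and 152 in replicate 2, or 42.2 and 25.2 CPM (33.7 ± 12.04 CPM). Mir24-2 over the Mir24-1 strand was 7.20 in replicate 1 (6.28 to 8.29) and 11.5 in replicate 2 (9.76 to 13.7), a log2 ratio of 3.19 ± 0.479. The counts on the Mir24-1 strand were higher in replicate 1 by 0.72 on the log2 scale (adjusted p = 1.19e-06, exact binomial test), past a ratio of 1.5. Of the 13 rows with 10 CPM or more on the opposite strand, 2 (15.4%) were called in either direction, this row among them. Mir24-2 was the higher one in both libraries. If multi-mapping reads are left out, this compares reads that fit 1 locus. The other 5 rows held no opposite-strand count in either library, so nothing was counted on the strand of Mir3074-2. Where 0 was counted, up to 3 counts are allowed for, or 0.539 CPM (replicate 1) and 0.497 CPM (replicate 2). The arm miR-3074-5p is the same at both loci. If multi-mapping reads are left out, its reads were not counted here, and the zero does not show that it was low. The other listed arm of Mir3074-2, miR-3074-2-3p, shared a run of at most 16 of its 20 bases with another miRNA hairpin. Full-length reads of that arm would fit no other miRNA hairpin, and 0 were counted.

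Within each cluster the row of the first hairpin was far above the rows of its neighbours. On chromosome 8, Mir23a had 84.5 times the counts of Mir27a (log2 6.40 ± 0.155), with 91.2 in replicate 1 (86.3 to 96.5) and 78.4 in replicate 2 (74.5 to 82.5). It had 68.1 times the counts of Mir24-2 (log2 6.09 ± 0.0155), and this ratio agreed between the libraries within counting error. Mir24-2 and Mir27a were close: their ratio was 1.35 in replicate 1 (1.25 to 1.45) and 1.14 in replicate 2 (1.07 to 1.22), a log2 ratio of 0.31 ± 0.171. If multi-mapping reads are left out, the Mir24-2 row lacks the arm it shares with another locus, and its ratios do not compare whole hairpins.

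On chromosome 13, Mir23b had 13.5 times the counts of Mir27b (log2 3.75 ± 0.105), with 14.2 in replicate 1 (13.8 to 14.6) and 12.8 in replicate 2 (12.5 to 13.1). It had 214 times those of Mir3074-1 (log2 7.74 ± 0.0223). Mir27b exceeded Mir3074-1 by 15.9-fold (log2 3.99 ± 0.127). Mir3074-1 is transcribed from the other strand, so these last ratios do not compare products of 1 primary transcript. If multi-mapping reads are left out, the Mir3074-1 row also lacks the arm it shares with another locus.

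The step down from miR-23 to miR-27 was thus steeper on chromosome 8. The ratio of Mir23a to Mir27a was 6.27 times that of Mir23b to Mir27b (log2 2.65 ± 0.0502), with 6.43 in replicate 1 and 6.12 in replicate 2. This value does not depend on library size, and it varied less between the libraries than either ratio in it. Adapter ligation and amplification can favour some sequences over others, and the arms differ in sequence; their part in these ratios was not tested. The shared runs of 18 bases mean that short reads of the 3p arms of miR-23 and miR-27 can fit both paralogs, and how many such reads the rows lack was not tested.

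**Figure D3:**
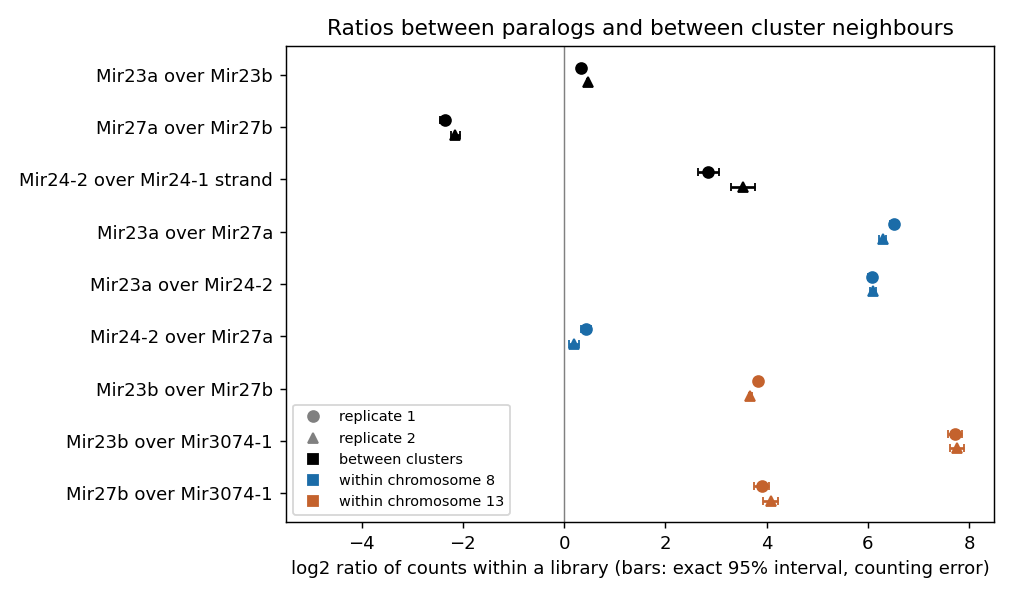
The log2 ratio of counts within a library for paralogs (black) and for neighbours on chromosome 8 (blue) and 13 (orange); circles are replicate 1, triangles replicate 2, bars the exact 95% interval for counting error. Mir23a over Mir23b lies above 0 at a mean of 0.40 and Mir27a over Mir27b below 0 at -2.25, and the ratios of miR-23 to miR-27 are 6.40 on chromosome 8 and 3.75 on chromosome 13.

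Summed over rows, the chromosome 8 cluster took 2.08% ± 0.0447 of all sense counts and the chromosome 13 cluster 1.66% ± 0.143. Their shares were 2.11% (2.09 to 2.12) and 1.76% (1.75 to 1.77) in replicate 1, with exact 95% intervals. In replicate 2 the shares were 2.04% (2.03 to 2.05) and 1.56% (1.55 to 1.57). The chromosome 8 cluster had 1.25 times the counts of the chromosome 13 cluster (log2 0.33 ± 0.0933), a difference set by Mir23a and Mir23b. Mir23a made up 97.4% ± 0.106 of its cluster and Mir23b 92.7% ± 0.457 of its own.

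A list of other paralog pairs, chosen with earlier results known and not complete, served as a background for the spread between paralogs. Of its 20 pairs, 18 had rows for both members and 16 had both at 10 CPM or more. Mir23a and Mir23b, at 1.32-fold, differed less than the 14 other listed pairs at that level. Several pairs not on the list, named after their values were seen, were closer. These include Mir181c and Mir181d (0.22 on the log2 scale of mean CPM). Mean levels were 41765 CPM for Mirlet7g and 39792 CPM for Mirlet7i, and 938 CPM for Mir467c and 941 CPM for Mir467d. The closest of the 14 were Mir15a over Mir15b (2.52-fold, log2 1.33 ± 0.0398) and Mir30d over Mir30e (log2 -1.37 ± 0.0996). The Mir27 pair differed less than 11 of the 14. Those 14 had a median absolute log2 ratio of 2.63, and Mir20a over Mir20b was the widest at 7.81 ± 0.493. Some of these pairs are near-identical copies whose reads can fall into the multi-mapping class, so the comparison is a description and was not tested.

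**Figure D4:**
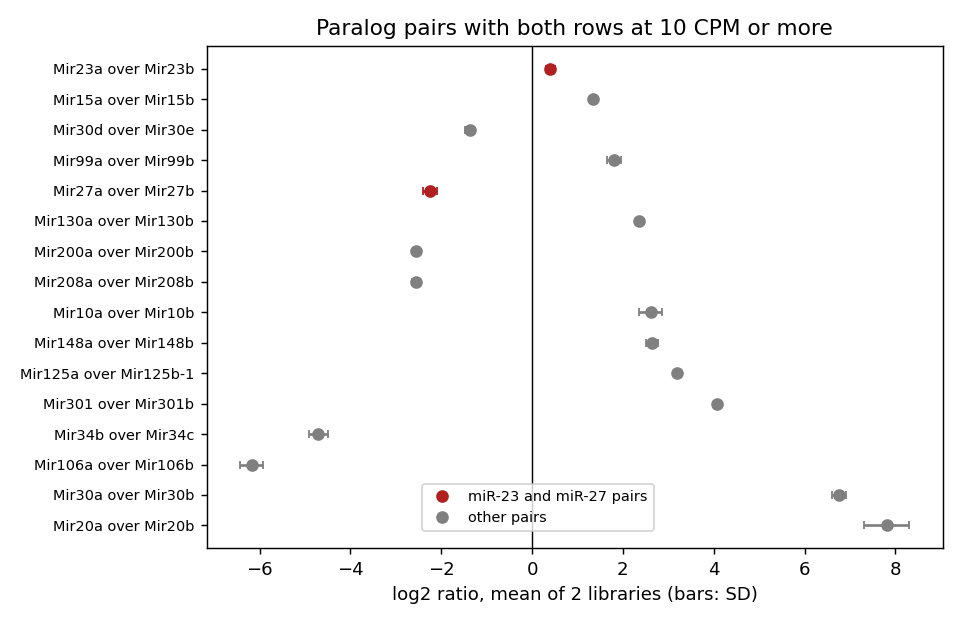
The log2 ratio of the 16 listed paralog pairs with both rows at 10 CPM or more, as the mean of both libraries with the SD as bars, ordered by size from the top. The Mir23 pair is at 0.40 and the Mir27 pair at -2.25; the list is not complete, so their places hold for these pairs alone.

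The genes nearest in mean CPM were Mir30e (24096 CPM) above and Mir17 (19922 CPM) below Mir23a, and Mir21a (17004 CPM) above and Mir652 (13956 CPM) below Mir23b. Mir30e lay above Mir23a, and Mir652 below Mir23b, without overlap of their ranges. The ranges of Mir17 and Mir23a overlapped, as did those of Mir21a and Mir23b. Mir27b lay below Mir16-1 (1284 CPM) without overlap and next to Mir872 (1118 CPM) with overlap. Mir24-2 lay between Mir186 (302 CPM) and Mir370 (294 CPM), and Mir27a between Mir200b (253 CPM) and Mir500 (231 CPM). Mir3074-1 lay between Mir770 (73.0 CPM) and Mir7j (71.6 CPM). All 6 of these last ranges overlapped with those of the members beside them. Likeness here is mean CPM over 2 libraries and nothing more.

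Between the libraries, the 6 rows differed little. Counts were compared by an exact binomial test (two-sided, conditional on the sum of both counts) over the 288 genes averaging at least 10 CPM, with Benjamini-Hochberg adjustment over all of them. Calls needed both an adjusted p under 0.05 and a 1.5-fold difference or more (1 CPM was added to each level). The comparison is one of these libraries and says nothing of conditions. None of the 6 members was called, against 5.90% of all genes tested. An adjusted p under 0.05 at any ratio was reached by 3 of 6 members, against 61.5% of all genes, and an unadjusted p under 0.05 by 4, against 185 of the 288.

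Of the members, Mir23b was higher in replicate 1 at a log2 ratio of 0.19 (adjusted p = 4.53e-161, exact binomial test), which was 0.08 under TMM and 0.07 under DESeq2 scaling. Mir27a was lower in replicate 1 (log2 -0.17, exact binomial test, adjusted p = 0.00327), and this ratio was -0.28 under TMM and -0.29 under DESeq2 scaling. Mir23a differed by 0.05 (exact binomial test, adjusted p = 4.48e-14), a shift that changed sign under other scalings. Mir24-2 (0.07) and Mir27b (0.04) had adjusted p-values of 0.228 and 0.192, and both changed sign under other scalings. Mir3074-1 had a log2 ratio of 0.21 with an adjusted p of 0.0507 in the exact binomial test. The median of the 6 was 0.06, and that of all 288 genes was 0.10.

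**Figure D5:**
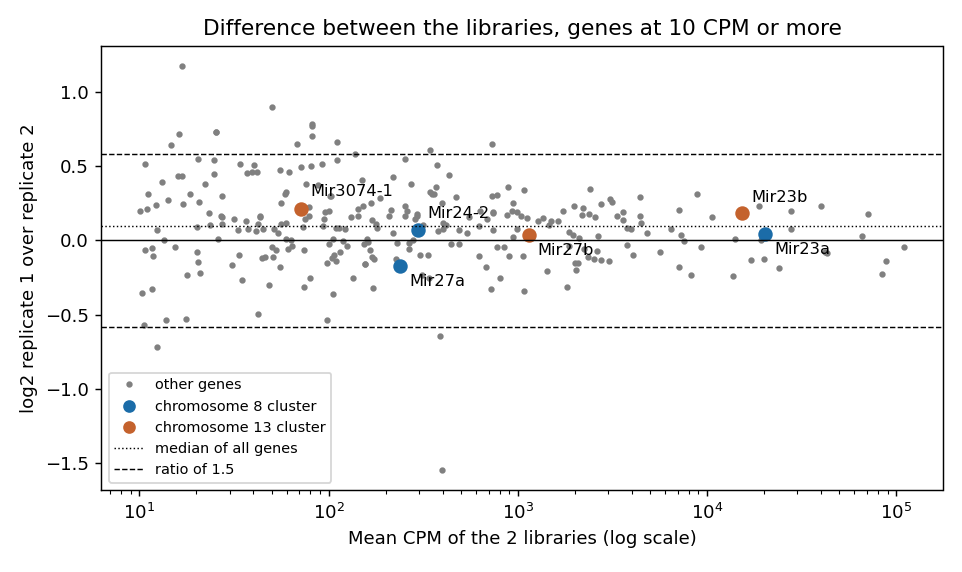
The log2 ratio of replicate 1 over replicate 2, with a pseudocount of 1 CPM, against mean CPM on a log axis for the 288 genes tested; grey points are other genes, blue and orange points the members on chromosomes 8 and 13, the dotted line the median of all genes (0.10) and the dashed lines a ratio of 1.5. All 6 members lie between the dashed lines, from -0.17 (Mir27a) to 0.21 (Mir3074-1).

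Mir23a and Mir23b, at ranks 12 and 17 of 1973, lay above most rows of any kind, including most of the 692 with a sense count. Their levels were set beside a list of miRNAs known from endothelial cells and angiogenesis. The list holds neither of them and was chosen with earlier results of these data known. Of its 10 symbols, 9 had a row, all at 10 CPM or more. Mir126a, whose host gene Egfl7 is expressed in endothelium, held 74876 CPM (replicate 1) and 66025 CPM (replicate 2). It was the only one of the 9 above Mir23a. Mir130a, at 19261 ± 53.2 CPM, was the other one above Mir23b. Mir296 (2405 ± 407 CPM) and Mir92-1 (1977 ± 224 CPM) lay between Mir23b and Mir27b. Mir210, a hypoxia-induced miRNA, at 801 ± 98.4 CPM lay between Mir27b and Mir27a. Mir132 held 158 ± 0.891 CPM, Mir221 41.9 ± 9.58 CPM, Mir222 24.7 ± 6.77 CPM and Mir218-1 11.8 ± 0.667 CPM. Between the libraries 0 of the 9 were called and 6 passed on the adjusted p alone (exact binomial test), against 5.90% and 61.5% of all genes. Their median log2 ratio was 0.18, against 0.10 for all genes.

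The labelled tissue was checked on miRNAs of heart muscle. Of 6, 3 reached 10 CPM (Mir208a, Mir208b and Mir499). Mir1a-1 and Mir133a-1 did not, and 1 (Mir133a-2) was at 0. The sum of the 6 was 50724 CPM (replicate 1) and 53395 CPM (replicate 2). Most of it was Mir208b, at 41742 and 44185 CPM. Mir126a stood alone for endothelium, and smooth muscle rows summed to 85136 and 93532 CPM. Other rows summed to less: erythroid rows summed to 1261 and 959 CPM, leukocyte rows to 587 and 473 CPM, the liver row to 201 and 591 CPM, and neural rows to 85.6 and 54.1 CPM. Of the 6 neural rows, 4 (Mir9-2, Mir124a-1, Mir124a-2 and Mir124a-3) were at 0. These miRNAs, like miR-133a, come from several loci with the same mature sequence, so if multi-mapping reads are left out, such zeros do not show that the miRNA was low. The part of any cell type in the levels of the clusters was not tested.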

How the data were processed

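For each library the authors deposited a table of raw counts (whole reads at each miRNA gene) on mm10 with GENCODE M4, per their notes; aligner, counter and trimming were not given in those notes or in the labels. They have 1973 gene rows, 4 rows of read classes, and columns for both strands, sense and opposite. Reads of the ambiguous class were left out of the base for the shares that follow. Of the rest, 26.9% in replicate 1 and 28.0% in replicate 2 were multi-mapping. Unmapped reads made up 21.2% and 17.2%, and reads outside any miRNA gene 3.60% and 2.92%. All 4 classes stayed out of library sizes. CPM were computed on total sense counts.

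Identifiers were matched without version to GENCODE M21 (1894 of 1973). Mir23b, Mir27b and Mir3074-1 have another version there, so the strand of the Mir3074-1 row is that of M21. Opposite-strand counts were given to Mir24-1 on that basis. Among the 43 other rows at 10 CPM with another version, the most opposite-strand counts in 1 row was 5.

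Members, lists and tests were chosen with earlier results of these data known. Named genes were the members, the gene above and below each in mean CPM, the widest and closest listed pairs, and listed endothelial rows. Unlisted closer pairs were named after their values were seen. Counts were simulated for replicate 1 over replicate 2 at 288 genes, with counting error alone. The binomial test with the 1.5-fold minimum recovered 199 of 200 genes changed 2-fold, with 0 false calls. By adjusted p alone, 4 unchanged genes passed there, and 0 in a simulation without changes. These draws hold only the error that the test assumes, so they do not show its false calls on real libraries. The binomial test sets a difference against counting error and holds no estimate of the spread between libraries. Nothing says that the biosamples came from separate animals. Alternatives were TMM (edgeR 4.0.16) and DESeq2 1.42.0 scaling, both strands, other minimums, a pseudocount of 1 CPM on ratios, a ratio of at least 2, and each library left out. R 4.3.3, Python 3.11.15, scipy 1.17.1 and biopython 1.88 were used.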

Additional observations from a re-analysis of the deposited data

Results flagged for a closer look

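Counts opposite to the row of Mir3074-1, on the strand of Mir24-1, were looked at because the fixed comparisons use sense counts only. Their mean of 33.7 CPM lay above the limits for a count of 0, 0.539 and 0.497 CPM. Of the reads at that row, 35.3% (31.7 to 39.1) in replicate 1 and 27.5% (23.8 to 31.4) in replicate 2 were of this kind, with exact 95% intervals. Between the libraries they differed by 0.72 on the log2 scale, being higher in replicate 1 (adjusted p = 1.19e-06, exact binomial test over the 13 rows with 10 CPM or more on the opposite strand). Of those 13 rows, 15.4% were called, the row of Mir3074-1 included, and the median log2 ratio of the 13 was 0.13. With total opposite counts as offset, the log2 ratio without pseudocount was 0.81 (exact binomial test, adjusted p = 6.98e-08). This test was added after the counts were seen.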

How the results depend on the processing

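No paired analysis was possible because the study holds 1 group. Leaving out either library kept the direction of all ratios between paralogs, neighbours and clusters; each then rests on 1 library and has no test. The log2 ratio of Mir24-2 over the Mir24-1 strand was 2.85 without replicate 2 and 3.53 without replicate 1. TMM and DESeq2 scaling lowered every log2 ratio of replicate 1 over replicate 2 by 0.10 and 0.12. This reversed Mir23a (-0.0574 with TMM, -0.0705 with DESeq2), Mir24-2 (-0.0354 and -0.0484) and Mir27b (-0.0660 and -0.0791), of which Mir27b then had adjusted p-values of 0.0164 and 0.00372 in the exact binomial test. Members with an adjusted p under 0.05 numbered 4 under either scaling, and none was called under any of the 5 alternatives. The 17 genes called became 39 at a minimum of 1 CPM (432 genes tested), 45 with no minimum (692 tested) and 2 at a ratio of at least 2. Without the most abundant gene in the library size, levels became 22713 CPM for Mir23a, 269 for Mir27a, 334 for Mir24-2, 17263 for Mir23b, 1279 for Mir27b and 80.7 for Mir3074-1. With both strands counted, Mir23a was at 19189 CPM, Mir24-2 at 282, Mir27b at 1080 and Mir3074-1 at 100.2. The log2 ratios to Mir3074-1 then fell to 7.20 for Mir23b and 3.44 for Mir27b, and the chromosome 8 cluster took 1.97%. Mir3074-1 and the Mir24-1 strand, with the fewest counts, are the least precise.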

Other observations

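In both clusters the row nearest the 5′ end of the transcribed strand, Mir23a and Mir23b, was also the highest. For a background, set up with the values known, rows of 1 strand were joined into clusters when consecutive starts were within 10000 nucleotides, keeping clusters with at least 2 rows at 10 CPM or more. Of 39 other such clusters, 16 had their highest row at the 5′ end. The highest and lowest rows at 10 CPM or more differed by 6.40 on the log2 scale of mean CPM on chromosome 8, and 8 of the 39 other clusters had a wider span. On chromosome 13, Mir23b and Mir27b differed by 3.76, and 21 of the 39 were wider; Mir3074-1 lies on the other strand and was not part of it. The median span of the 39 was 4.28. Their highest row took a median of 75.4% of the cluster, against 97.4% on chromosome 8 and 93.1% on chromosome 13. This share was larger than on chromosome 8 in 9 of the 39, and larger than on chromosome 13 in 12. Row number was not matched: the other clusters held from 2 (Mir143) to 107 rows (Mir669e). Chromosome 8 held 3 and chromosome 13 held 2, and each of those 9 clusters held 2. A top share tends to be larger with fewer rows. Rows whose mature sequence lies at several loci, as at Mir24-2, lack reads if multi-mapping ones are left out. The part of either in these spans and shares was not tested.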
